A study of Mus musculus with 12 samples.

Results

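The nonsense-mediated decay factors described here are 9 genes, Upf1, Upf2, Upf3a, Upf3b, Smg1, Smg5, Smg6, Smg8 and Smg9, chosen by name from the 24411 genes of the deposited tables. All 9 passed the low-count filter and are among the 13755 genes tested. They were followed in 12 RNA-seq libraries of lineage-negative, cKit-positive mouse bone marrow, a gate that holds stem cells and early progenitors, with 3 libraries in each of 4 groups. The double group came from CD45.2 donors carrying Mx1-Cre with both the inv(3) allele and heterozygous Sf3b1 K700E. The Sf3b1 K700E group carried Mx1-Cre with that allele alone, the inv(3) group carried Mx1-Cre with inv(3) alone, and the control group carried Mx1-Cre alone. All mice were on the C57BL/6 strain. In every group, donor marrow was mixed with wild-type CD45.1 support marrow and transplanted into irradiated CD45.1 recipients, which later received 3 doses of pIpC at 20 mg/kg to switch on Mx1-Cre, and cells were taken 6 months after pIpC. Mx1-Cre is driven by an interferon-responsive promoter and is not confined to blood cells. The sources used here do not give the age of the mice or say whether CD45.2 cells were separated from support and recipient cells before sequencing. The inv(3) rearrangement places a GATA2 enhancer beside EVI1, the product of Mecom in the mouse, and Sf3b1 encodes a core splicing factor. The series concerns the splicing of EVI1 in leukemia with that rearrangement.

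Nonsense-mediated decay removes mRNAs whose translation ends early, typically upstream of an exon junction complex left behind by splicing. Upf1, an RNA helicase, is recruited to the terminating ribosome, is joined to the exon junction complex through Upf2 and Upf3a or Upf3b, and is phosphorylated by the kinase Smg1, which Smg8 and Smg9 bind and restrain. Phosphorylated Upf1 then binds Smg6, an endonuclease that cuts the mRNA near the stop codon, and Smg5, which helps to bring in decapping, deadenylation and phosphatase activities. Mutant SF3B1 uses cryptic splice sites, and many of the resulting transcripts carry early stop codons, so the pathway is often discussed beside this mutation.

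The libraries held between 73074797 and 86555638 expected counts each. The TMM scaling factors, which adjust totals for composition, ran from 0.949 to 1.06, a range of 0.16 on the log2 scale. Kit, the gene for the sorted receptor, was at 420 to 468 CPM (read counts scaled to a common library size, with TMM factors, here and below) in all 12 libraries. Other genes listed for the gate moved, at an edgeR adjusted p under 0.05. In inv(3) against control libraries Spi1 was higher and Cd34 and Gata2 were lower, 3 of 6 genes against 38.7% of all tested genes. In double against inv(3) libraries Cd34 and Gata2 were higher and none was lower, against 22.6% of all tested genes. Cd34 averaged 221.6 CPM in double, 379.7 CPM in Sf3b1 K700E, 130.4 CPM in inv(3) and 295.4 CPM in control libraries. Of the mature lineage genes the gate should remove, Cd3e, Cd4, Cd8a and Klrb1c were at or below 2.74 CPM in every library, while the myeloid gene Itgam was at 104 to 380.7 CPM. The 3 inv(3) libraries had 1794 to 2095 CPM of the X-inactivation RNA Xist, against 23.2 to 209.7 CPM in the other 9, and at most 0.0275 CPM of the Y-linked Ddx3y, against at least 98.8 CPM in the others. Each comparison with the inv(3) group is therefore also one between female and male RNA, and these cannot be told apart. Among the other 9 libraries, Xist was at 190.8, 209.7 and 77.1 CPM in the Sf3b1 K700E group. Control libraries had 24.0 to 39.9 CPM and double libraries 23.2 to 40.5 CPM of Xist. The source of this Xist difference was not tested. Upf3b is the only X-linked member. The labels do not say that the libraries of a group came from separate mice, so p-values measure the spread between these libraries, which may be technical.

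Every decay factor was expressed in every library at a moderate level. In TPM, a share of all transcripts that allows for transcript length, the highest medians over the 12 libraries belonged to Upf3b at 56.7 TPM, Smg5 at 55.5 TPM and Upf1 at 54.5 TPM. Upf3b exceeded Smg5 in 7 of 12 libraries and Smg5 exceeded Upf1 in 9 of 12, so these 3 levels did not separate beyond the spread of the libraries. Upf1 exceeded the next gene, the kinase Smg1 with a median of 40.2 TPM, in 12 of 12 libraries. Smg1 stood above Upf3a, at 35.6 TPM, in 10 of 12, and Upf3a stood above Upf2, at 30.1 TPM, in 12 of 12. The lowest levels were those of Smg9 at 27.2 TPM, Smg8 at 26.5 TPM and the endonuclease Smg6 at 26.1 TPM, and neighbours among Upf2, Smg9, Smg8 and Smg6 exchanged places in 3 or 4 of 12 libraries. By mean TPM the 9 members ranked between the 60.2 and 79.4 percentiles of tested genes. The counts behind the values ran from 1899 expected counts for Upf3a in its lowest library to 33864 for Smg1 in its highest.

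**Figure D1:**
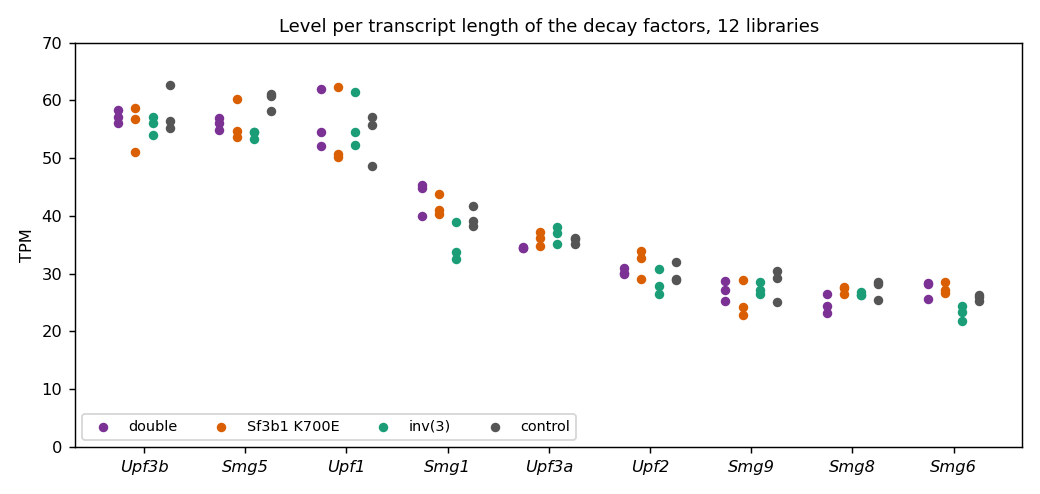
TPM of the 9 decay factors (vertical axis) in each of the 12 libraries, with the genes ordered along the horizontal axis by median TPM and points coloured by group. Upf3b, Smg5 and Upf1 overlap between 48.6 and 62.7 TPM, and the other 6 genes lie below them.

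The factors varied little across genotypes. For each gene the highest group mean less the lowest, in log2 CPM, ran from 0.05 for Upf2 to 0.29 for Smg9, with a median of 0.19 over the 9 members and 0.36 over all tested genes. A span below that of Smg9 was found in 41.9% of tested genes. The highest group mean belonged to inv(3) libraries for Upf1, Upf3a, Upf3b, Smg8 and Smg9 to double libraries for Upf2, Smg1 and Smg6, and to control libraries for Smg5. Within groups the standard deviation of log2 CPM had a median of 0.075 over members and 0.10 over all tested genes, with the widest spread in Upf1 at 0.15 and Smg9 at 0.13. The summed TPM of all 9 genes ran from 349.4 to 367.5 TPM in double libraries, from 349.5 to 363.3 TPM in Sf3b1 K700E libraries, from 336.6 to 347.1 TPM in inv(3) libraries and from 358.1 to 359.8 TPM in control libraries. The 3 inv(3) sums lie below the other 9, although on the CPM scale, which is not divided by transcript length, 5 of the 9 genes have their highest mean in that group. TPM are shares of each library's own total and carry no TMM factor. On the log2(TPM + 1) scale the median tested gene was also lower in inv(3) than in control libraries, at -0.083.

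**Figure D2:**
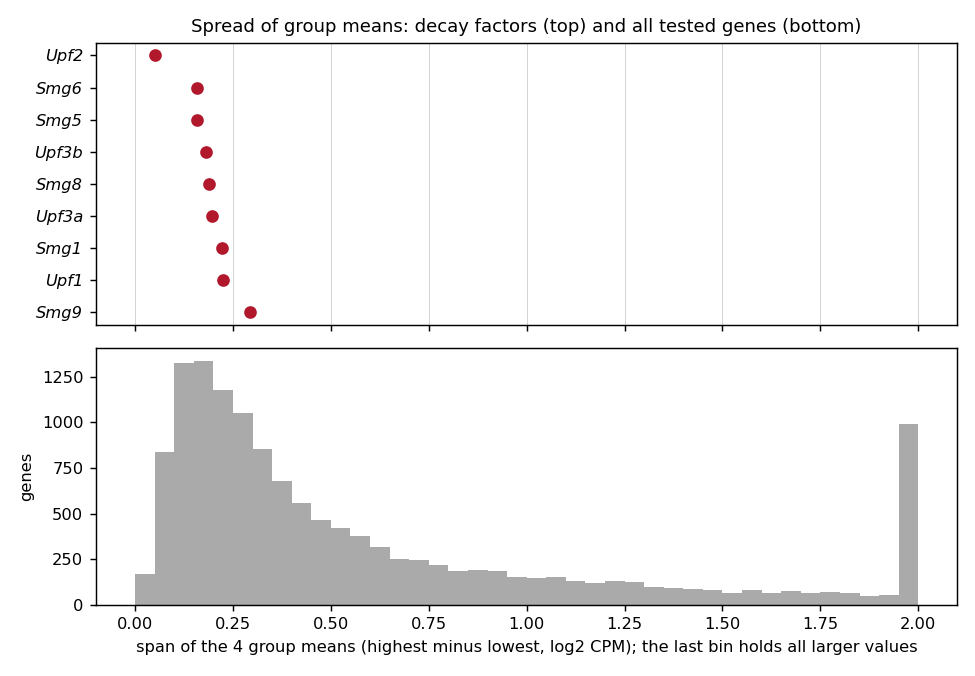
Span of the 4 group means (highest minus lowest, log2 CPM, horizontal axis), shown for each decay factor in the upper panel and as a histogram of all 13755 tested genes in the lower panel, with larger values gathered in the last bin. The 9 factors lie between 0.05 and 0.29.

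Double against inv(3) libraries compares Sf3b1 K700E with wild-type Sf3b1 among cells that carry the rearrangement, and it gave the largest number of calls among the members. Smg1 and Smg6 were higher in the double group, and Upf3a and Smg8 were lower, by 11.2% to 16.6% in either direction. Of the 9 members, 2 passed as higher and 2 as lower in edgeR's quasi-likelihood test at an adjusted p under 0.05. These 4 of 9 stand against 22.6% of all tested genes called, 13.4% higher and 9.13% lower. The same 4 genes were those whose libraries did not overlap between the groups, against 21.9% of tested genes higher and 17.6% lower without overlap. With so few members these counts are a description, and the members' median absolute log2 difference was 0.10, against 0.15 over all genes.

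Smg1, the kinase that phosphorylates Upf1, had 404, 368 and 409 CPM in double libraries, against 366, 323 and 324 CPM in inv(3) libraries. All 3 double libraries lay above all 3 inv(3) libraries, though double replicate 2 and inv(3) replicate 1 nearly met. The log2 difference was 0.22 ± 0.06 (SE, n = 3 each, 95% interval 0.09 to 0.36, edgeR adjusted p = 0.0245). Smg6, the endonuclease, had 93.5, 86.2 and 93.6 CPM in double libraries, against 84.0, 78.7 and 82.2 CPM in inv(3) libraries. Again no library crossed between the groups, and double replicate 2 was once more the lowest of its group. For Smg6 the log2 difference was 0.16 ± 0.05 (SE, n = 3 each, 95% interval 0.05 to 0.26, edgeR adjusted p = 0.034).

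Upf3a, a link to the exon junction complex, had 24.9, 25.4 and 25.1 CPM in double libraries, against 27.9, 29.9 and 27.0 CPM in inv(3) libraries. The double libraries were close together and lay below every inv(3) library. This gave a log2 difference of -0.17 ± 0.05 (SE, n = 3 each, 95% interval -0.28 to -0.06, edgeR adjusted p = 0.0281). Smg8, a subunit that restrains Smg1, had 43.5, 48.2 and 41.6 CPM in double libraries, against 49.0, 51.4 and 51.2 CPM in inv(3) libraries. Here double replicate 2 was the highest of its group and came closest to the inv(3) libraries. For Smg8 the log2 difference was -0.19 ± 0.06 (SE, n = 3 each, 95% interval -0.32 to -0.06, edgeR adjusted p = 0.0432). Smg9, the partner of Smg8, had 34.7, 31.2 and 32.9 CPM in double libraries and 33.4, 37.7 and 35.1 CPM in inv(3) libraries, which overlapped. Its log2 difference of -0.10 ± 0.10 did not pass (SE, n = 3 each, edgeR adjusted p = 0.486). Upf1, Upf2, Upf3b and Smg5 differed by -0.09 to 0.01 on the log2 scale with overlapping libraries, and their adjusted p in edgeR was 0.61 or higher.

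The 4 calls were close to the threshold. None passed when inv(3) replicate 2, double replicate 1 or double replicate 3 was left out or when the 6 compared libraries were fitted alone, 1 passed without inv(3) replicate 3 and 2 passed without control replicate 2. Smg6 also failed without control replicate 3 and Smg8 without Sf3b1 K700E replicate 2, and Upf3a and Smg8 failed with library totals as the only scaling and in limma on log2(TPM + 1). Where a call was lost its adjusted p ran from 0.0506 to 0.219, and every difference kept its sign.

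**Figure D3:**
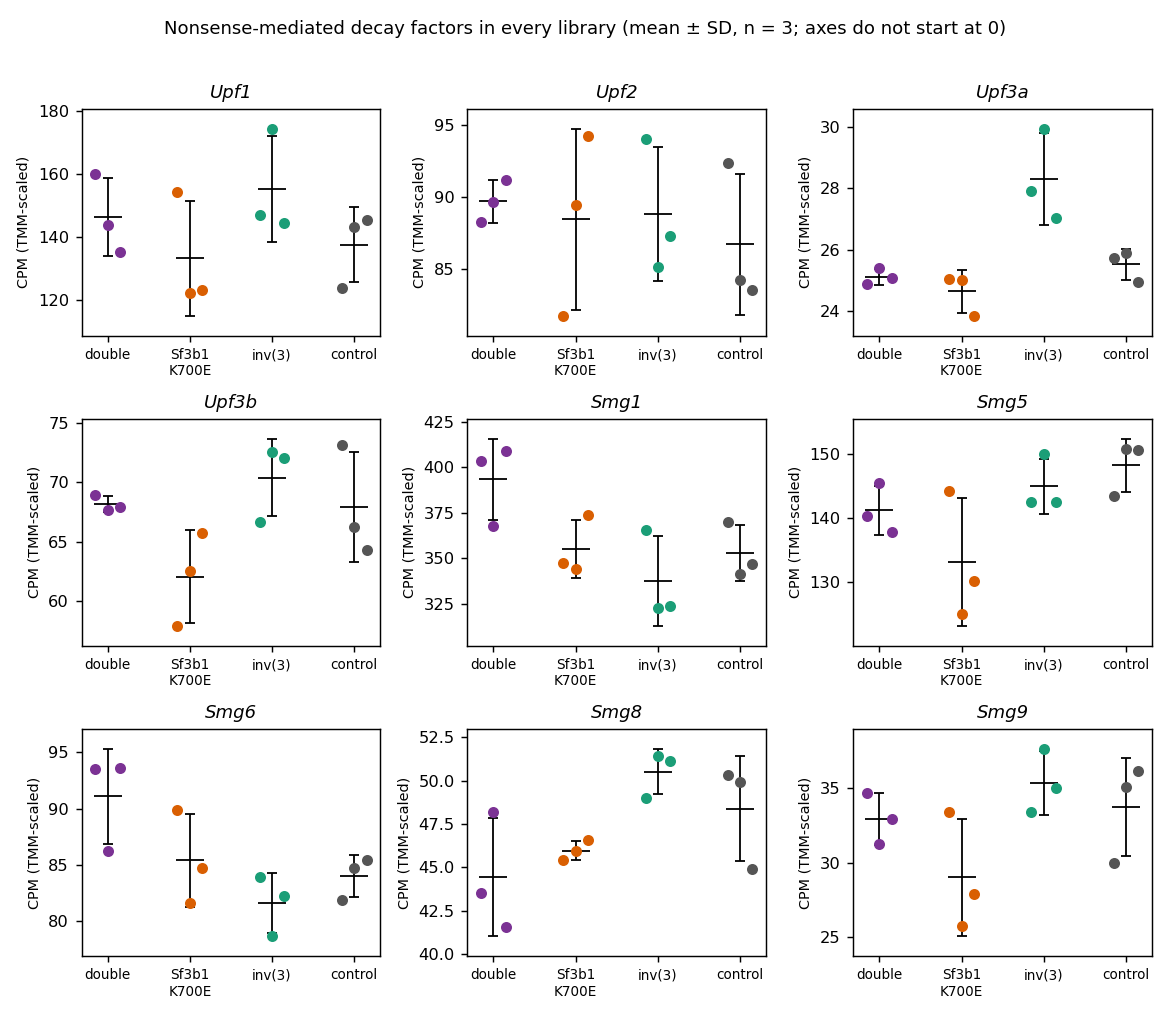
TMM-scaled CPM (vertical axis, each panel with its own range) of each decay factor in the 3 libraries of the double, Sf3b1 K700E, inv(3) and control groups, with the group mean as a bar. Smg1 and Smg6 are highest in the double group, and Upf3a is highest in the inv(3) group.

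Several cell type marker lists moved in the same comparison. Of 12 stem and early progenitor genes 8 were higher in the double group, with summed levels of 141.6 to 178.7 CPM in double libraries and 88.5 to 128.3 CPM in inv(3) libraries. Of 7 primary granule genes 5 were lower, with sums of 30760 to 35410 CPM in double libraries and 41270 to 42590 CPM in inv(3) libraries. Of 14 macrophage genes 3 were lower, with sums of 117.8 to 147 CPM in double libraries and 147.9 to 199.4 CPM in inv(3) libraries. Of 14 mature neutrophil genes 1 was higher and 2 were lower, with sums of 2926 to 4151 CPM in double libraries and 4863 to 6054 CPM in inv(3) libraries. In such bulk libraries fewer cells of a type and less RNA per cell cannot be told apart, and the part of these markers in the decay factor differences was not tested.

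The promoters of the 4 genes are shown because these genes separated the double from the inv(3) libraries in opposite directions. Each is the 250 bases before the transcription start from RefSeq on GRCm38.p6, read along the gene's own strand, with capitals marking a match to an ETS-type motif. Upf3a is at chr8:13785365-13785614 on the plus strand, Smg1 at chr7:118243638-118243887 on the minus strand, Smg6 at chr11:74925604-74925853 on the plus strand and Smg8 at chr11:87086778-87087027 on the minus strand.
Smg1: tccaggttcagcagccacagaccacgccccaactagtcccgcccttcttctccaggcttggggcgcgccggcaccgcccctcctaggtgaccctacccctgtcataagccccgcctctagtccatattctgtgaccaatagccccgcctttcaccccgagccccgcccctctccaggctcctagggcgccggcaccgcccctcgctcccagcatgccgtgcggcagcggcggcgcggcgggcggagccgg
Smg6: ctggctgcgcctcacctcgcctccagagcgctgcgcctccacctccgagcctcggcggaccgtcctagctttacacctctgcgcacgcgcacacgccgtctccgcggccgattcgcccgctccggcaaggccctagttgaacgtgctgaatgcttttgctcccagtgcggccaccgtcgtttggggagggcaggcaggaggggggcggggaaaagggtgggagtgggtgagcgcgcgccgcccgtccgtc
Upf3a: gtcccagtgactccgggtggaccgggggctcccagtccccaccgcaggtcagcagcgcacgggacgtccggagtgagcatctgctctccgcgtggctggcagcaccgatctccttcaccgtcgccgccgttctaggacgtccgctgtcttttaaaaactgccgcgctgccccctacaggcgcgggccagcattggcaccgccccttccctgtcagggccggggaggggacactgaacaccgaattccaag
Smg8: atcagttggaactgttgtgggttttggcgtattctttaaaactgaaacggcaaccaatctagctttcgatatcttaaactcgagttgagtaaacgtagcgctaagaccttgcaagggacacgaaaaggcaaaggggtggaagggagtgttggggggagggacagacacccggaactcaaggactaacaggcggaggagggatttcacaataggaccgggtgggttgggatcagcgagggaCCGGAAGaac
The promoters of Smg1, Smg6 and Upf3a were rich in G and C, at 70.8%, 70.4% and 67.2% against a median of 52.4% over 32851 promoters of the same length, and held 23, 30 and 23 CpG dinucleotides against a median of 6. The promoter of Smg8 differed from them, with 50.8% G and C and 12 CpG. On both strands, CCGGAAG was found in Smg8 alone of the 9 members and in 6.91% of all promoters, and the GATA motif GATAA in Upf3b alone and in 22.6% of all promoters. The E-box CACGTG, the cyclic-AMP element TGACGTCA and GAAGATGAG, a motif known from the distal zinc fingers of EVI1, were in none of the 9 and in 6.02%, 1.55% and 0.347% of all promoters. CACGTG and TGACGTCA read the same on both strands, and no 2 of the 5 motifs contain each other. A match here describes these letters and does not show binding.

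Inv(3) against control libraries compares cells with and without the rearrangement on a wild-type Sf3b1 background. Among the 9 members 1 passed, Upf3a, which was higher in the inv(3) group, against 38.7% of all tested genes called in either direction and 18.4% called higher. Upf3a was at 27.9, 29.9 and 27.0 CPM in inv(3) libraries, against 25.7, 25.9 and 24.96 CPM in control libraries. Every inv(3) library lay above every control library, which held for 24.9% of all genes. The log2 difference was 0.15 ± 0.05 (SE, n = 3 each, 95% interval 0.04 to 0.26, edgeR adjusted p = 0.0325). Upf1, the helicase, had 147, 175 and 144 CPM in inv(3) libraries and 124, 143 and 146 CPM in control libraries. Its log2 difference was 0.17 ± 0.11, the groups overlapped and it did not pass (SE, n = 3 each, edgeR adjusted p = 0.225), and with a GC offset the difference was 0.04. The remaining 7 members differed by -0.06 to 0.07. The members' median absolute log2 difference was 0.063, against 0.19 over all genes. The Upf3a call did not survive scaling by upper quartile or by library totals, the fit of the 6 compared libraries alone, or leaving out any 1 control library, inv(3) replicate 1 or inv(3) replicate 2, where the adjusted p in edgeR ran from 0.0536 to 0.244. In limma on log2(TPM + 1) its difference was 0.04 with an adjusted p of 0.528, and Smg5 and Smg6 passed as lower in its place, at -0.14 and -0.15. The median gene in that fit was at -0.083. In the same comparison 10 of 15 erythroid genes were lower and 1 higher, with sums of 362.1 to 499.6 CPM in inv(3) libraries and 989.8 to 1054 CPM in control libraries. Of 14 mature neutrophil genes 10 were higher and 1 lower, with sums of 4863 to 6054 CPM in inv(3) libraries and 1526 to 2189 CPM in control libraries. The part of these markers in the difference of Upf3a was not tested.

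Sf3b1 K700E against control libraries compares the splicing mutation alone with Mx1-Cre alone. No decay factor passed, against 8.84% of all tested genes called. Limma-voom and DESeq2 also called 0 of 9, and 3 members, Upf3b, Smg5 and Smg9, had an unadjusted p under 0.05 in edgeR, all with lower means in the Sf3b1 K700E group. Upf3b had 57.9, 62.6 and 65.8 CPM in Sf3b1 K700E libraries and 73.1, 66.3 and 64.3 CPM in control libraries, with 1 Sf3b1 K700E library inside the control range. Its log2 difference was -0.13 ± 0.06 (SE, n = 3 each, edgeR adjusted p = 0.191). Smg5, which binds phosphorylated Upf1, had 144, 125 and 130 CPM in Sf3b1 K700E libraries and 144, 151 and 151 CPM in control libraries. Its replicate 1 stood at the control level and the other Sf3b1 K700E libraries stood below, for a log2 difference of -0.16 ± 0.05 (SE, n = 3 each, edgeR adjusted p = 0.0935). Smg9 showed the same arrangement, with 33.4, 25.8 and 27.9 CPM in Sf3b1 K700E libraries and 30.0, 35.1 and 36.2 CPM in control libraries. Its log2 difference was -0.22 ± 0.10 (SE, n = 3 each, edgeR adjusted p = 0.182). Without Sf3b1 K700E replicate 1, Smg5 differed by -0.22 and Smg9 by -0.34, and both passed, with adjusted p of 0.0233 and 0.0426 in edgeR. The Sf3b1 K700E libraries then left are the 2 of the series in which GC-rich transcripts were lowest relative to GC-poor ones, and with an offset for GC content on all 12 libraries neither gene passed. Over the 9 members the 95% intervals reached no further than 0.43 from 0 on the log2 scale, so larger differences in either direction lie outside them. Of 14 macrophage genes 11 were higher and none lower, with sums of 599.6 to 814.4 CPM in Sf3b1 K700E libraries and 464.1 to 567.7 CPM in control libraries. Of 7 primary granule genes 6 were lower and none higher, with sums of 21220 to 26060 CPM in Sf3b1 K700E libraries and 33520 to 36480 CPM in control libraries. Among 10 tested B-lymphoid genes 6 were higher and none lower, and among 15 erythroid genes 4 were higher and none lower. The part of these markers in the member values was not tested.

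Double against control libraries compares both alleles with neither. No decay factor passed in edgeR, against 41.1% of all tested genes called, and the members' median absolute log2 difference was 0.071, against 0.19 over all genes. At an unadjusted p under 0.05 there were 2, Smg1 and Smg6. Smg1 had 404, 368 and 409 CPM in double libraries and 370, 342 and 347 CPM in control libraries, where double replicate 2 fell just under control replicate 1. The log2 difference was 0.16 ± 0.06 (SE, n = 3 each, 95% interval 0.02 to 0.29, edgeR adjusted p = 0.0603). DESeq2 called Smg1 as its only member, with an adjusted p of 0.042. Smg6 had 93.5, 86.2 and 93.6 CPM in double libraries and 81.8, 84.7 and 85.4 CPM in control libraries, which did not overlap, as was the case for 27.3% of all genes on the higher side. The log2 difference was 0.12 ± 0.05 (SE, n = 3 each, 95% interval 0.01 to 0.22, edgeR adjusted p = 0.0687). Without double replicate 2, Smg1, Smg6 and Smg8 passed in edgeR, with log2 differences of 0.20, 0.15 and -0.19 and adjusted p of 0.0312, 0.032 and 0.0208. A single member passed without control replicate 3 or without inv(3) replicate 1. Of 15 erythroid genes 14 were lower and 1 higher, with sums of 397.9 to 471.3 CPM in double libraries and 989.8 to 1054 CPM in control libraries. Of 14 mature neutrophil genes 9 were higher and none lower, with sums of 2926 to 4151 CPM in double libraries and 1526 to 2189 CPM in control libraries. Of 14 macrophage genes 10 were lower and none higher, with sums of 117.8 to 147 CPM in double libraries and 464.1 to 567.7 CPM in control libraries. Of 12 mast cell, basophil and eosinophil genes 10 were lower and none higher, with sums of 319.6 to 354.5 CPM in double libraries and 1055 to 1190 CPM in control libraries. The part of these markers in the values of the decay factors was not tested.

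Double against Sf3b1 K700E libraries compares inv(3) with its absence among cells that carry the splicing mutation. No member passed, against 49.2% of all tested genes called, and 2 had an unadjusted p under 0.05 in edgeR. Upf3b had 69.0, 67.7 and 67.9 CPM in double libraries, all above the 57.9, 62.6 and 65.8 CPM in Sf3b1 K700E libraries, a lack of overlap found on the higher side in 29.6% of genes. Its log2 difference was 0.14 ± 0.06 (SE, n = 3 each, edgeR adjusted p = 0.0753). Smg1 had 404, 368 and 409 CPM in double libraries and 348, 344 and 374 CPM in Sf3b1 K700E libraries, with 1 double library inside the range of the Sf3b1 K700E group and a log2 difference of 0.15 ± 0.06 (SE, n = 3 each, edgeR adjusted p = 0.0654). DESeq2 and limma-voom likewise called 0 of 9. Without Sf3b1 K700E replicate 1, Smg5, Smg6 and Smg9 passed as higher in the double group, though with a GC offset on all 12 libraries none of these 3 passed and Smg5 and Smg9 changed sign. A single member passed without control replicate 1, inv(3) replicate 1 or double replicate 2. Of 15 erythroid genes all 15 were lower in the double group, with sums of 397.9 to 471.3 CPM in double libraries and 1195 to 1330 CPM in Sf3b1 K700E libraries. The interaction, which asks whether the double group departs from the sum of both single differences, was called for 0 of 9 members in edgeR, DESeq2 and limma-voom, against 0.836% of all genes in edgeR. Its only member with an unadjusted p under 0.05 in edgeR was Smg1, at 0.21 ± 0.09 on the log2 scale (SE, n = 3 libraries in each of 4 groups, adjusted p = 0.252).

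**Figure D4:**
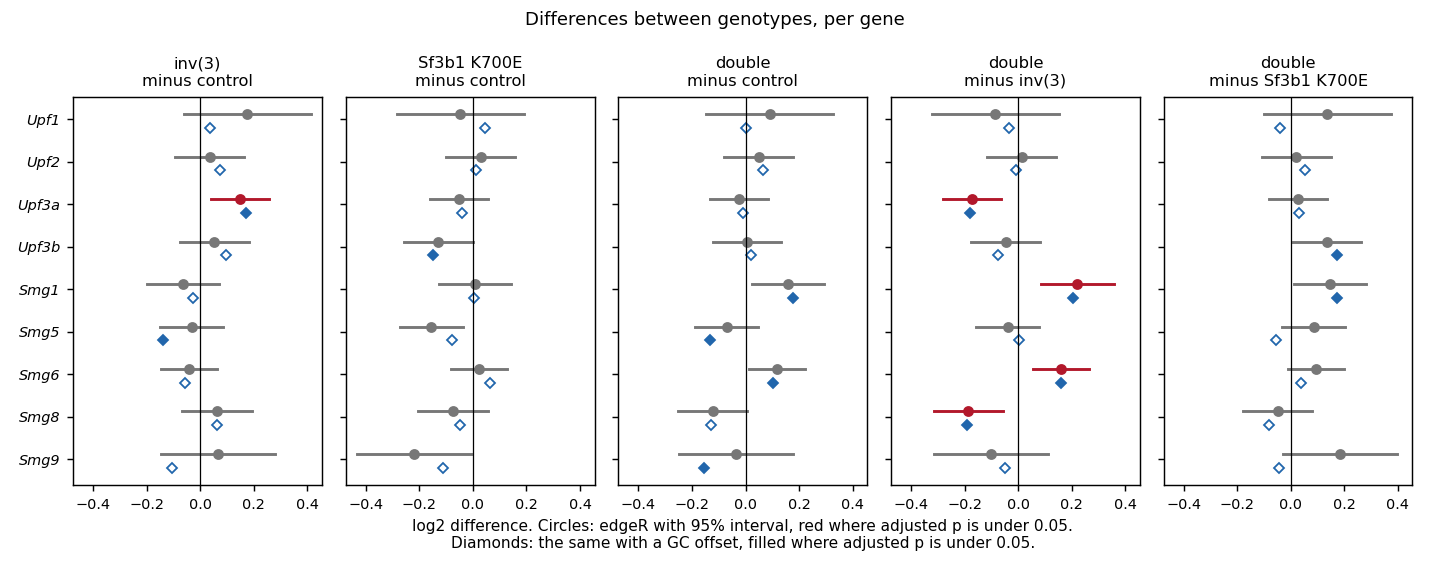
Log2 difference of each decay factor (horizontal axis, one panel per comparison) with its 95% interval from edgeR, red where the adjusted p is under 0.05, and the same difference with a GC offset as a diamond, filled where the adjusted p is under 0.05. Calls without the offset are Upf3a in inv(3) minus control and Smg1, Smg6, Upf3a and Smg8 in double minus inv(3).

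The libraries also differed in the level of transcripts rich in G and C relative to GC-poor ones, and some members followed this more closely than others. Whether the difference arose in RNA recovery or in the cells was not tested. The GC tilt of a library is taken here as the median log2 CPM, centred on each gene's mean, of genes in the upper GC quartile less that of genes in the lower quartile. It was 0.139, 0.016 and 0.009 in double libraries, 0.079, -0.235 and -0.255 in Sf3b1 K700E libraries, 0.082, 0.18 and 0.088 in inv(3) libraries and -0.229, 0.043 and 0.081 in control libraries. Sf3b1 K700E replicates 2 and 3 and control replicate 1 thus stood apart on the negative side. Smg9, Upf1 and Smg5 have the most GC-rich transcripts of the members, at 60.3%, 57.9% and 56.5%, and Upf3b, Upf2 and Smg1 the least, at 42.7%, 43.5% and 44.9%. In the same 3 libraries Upf1 was at 122, 123 and 124 CPM, its lowest values of the series.

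With the trend of each library on GC content entered as an offset, a setting chosen after these values were seen, the within-group standard deviation fell to 0.059 for Upf1, against 0.15 without the offset, and to 0.046 for Smg9, against 0.13. That of Upf3a was 0.056 with the offset and 0.046 without. The 4 calls of double against inv(3) libraries stayed, with adjusted p of 0.00926 to 0.0232 in edgeR, against 30.3% of genes called in that fit. Other differences moved and some passed. In double against control libraries 4 members passed against 48.1% of genes, Smg1 at 0.18 and Smg6 at 0.10 being higher and Smg5 at -0.13 and Smg9 at -0.16 lower (log2, edgeR adjusted p = 0.0206, 0.0408, 0.0123 and 0.0106). In inv(3) against control libraries Smg5 joined Upf3a, at -0.14 with an edgeR adjusted p of 0.0114, against 44.3% of genes called. Upf3b passed in Sf3b1 K700E against control libraries at -0.15, with an edgeR adjusted p of 0.0311 and 13.1% of genes called. Upf3b and Smg1 passed in double against Sf3b1 K700E libraries, both at 0.17, with edgeR adjusted p of 0.00326 and 0.0197 and 54.2% of genes called. Some differences of GC-rich members shrank or turned. Upf1 differed by 0.04 with the offset between inv(3) and control libraries, against 0.17 without it. In Sf3b1 K700E against control libraries Smg5 was at -0.08 and Smg9 at -0.11, against -0.16 and -0.22 without the offset, and neither passed (edgeR adjusted p = 0.197 and 0.105). In double against Sf3b1 K700E libraries the offset gave -0.06 for Smg5, -0.04 for Smg9 and 0.04 for Smg6, against 0.09, 0.18 and 0.09 without it, so that Smg5 and Smg9 changed sign. Upf1 turned in the same comparison, at -0.04 with the offset and 0.14 without it. When transcript length was added to the offset, the difference of Smg1, which has the longest transcript of the members at 15553 bases, was 0.06 between double and inv(3) libraries and no longer passed (edgeR adjusted p = 0.219).

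**Figure D5:**
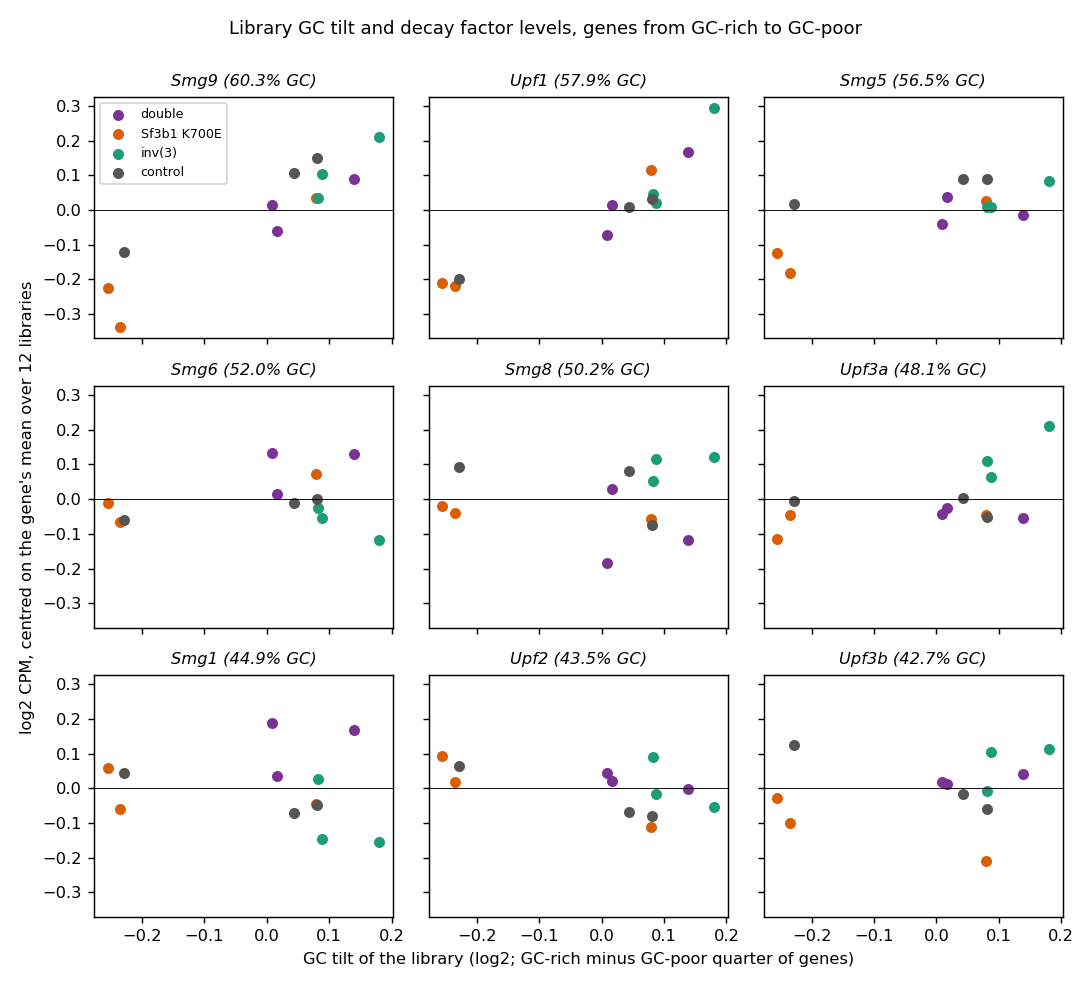
Log2 CPM of each decay factor, centred on its mean over 12 libraries (vertical axis), against the GC tilt of the library (horizontal axis, log2), with panels ordered from the most to the least GC-rich transcript and points coloured by group. Smg9 and Upf1, at 60.3% and 57.9% GC, are lowest in the 3 libraries with a tilt below -0.2.

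Ratios of partners within a library, taken on the TPM scale, describe the same changes without a scaling factor. Smg8 over Smg1, a restraining subunit over its kinase, was 0.543, 0.66 and 0.512 in double libraries, 0.657, 0.673 and 0.627 in Sf3b1 K700E libraries, 0.674, 0.805 and 0.796 in inv(3) libraries and 0.685, 0.735 and 0.652 in control libraries. The double libraries lay below every inv(3) library, and double replicate 2 lay inside the range of the other groups. Smg9 over Smg1 averaged 0.624 ± 0.022 in double, 0.609 ± 0.092 in Sf3b1 K700E, 0.787 ± 0.099 in inv(3) and 0.715 ± 0.098 in control libraries (SD, n = 3 each). Smg6 over Smg5, endonuclease over decapping and deadenylation arm, was 0.506, 0.451 and 0.516 in double libraries, 0.473, 0.496 and 0.495 in Sf3b1 K700E libraries, 0.448, 0.398 and 0.438 in inv(3) libraries and 0.433, 0.427 and 0.431 in control libraries. On this ratio every library with Sf3b1 K700E, alone or with inv(3), lay above every library without it, by 0.451 against 0.448 at the closest. Smg5 transcripts are richer in GC than those of Smg6, at 56.5% against 52.0%, and the part of the GC tilt in this ratio was not tested. Upf3a over Upf3b averaged 0.603 ± 0.012 in double, 0.652 ± 0.057 in Sf3b1 K700E, 0.659 ± 0.039 in inv(3) and 0.617 ± 0.036 in control libraries (SD, n = 3 each), all with overlapping ranges except that double libraries lay below those of inv(3). Upf2 over Upf1 averaged 0.544 ± 0.054 in double, 0.597 ± 0.11 in Sf3b1 K700E, 0.51 ± 0.070 in inv(3) and 0.562 ± 0.084 in control libraries (SD, n = 3 each) and overlapped throughout. These ratios were chosen after the levels were seen and were given no test.

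Isoform use could be examined through length for 1 member. Upf1 has 2 listed transcripts. Its length, the abundance-weighted mean over them, was 4588.26 to 4591.02 bases in double libraries and 4588.67 to 4589.57 bases in Sf3b1 K700E libraries. It was 4588.37 to 4588.71 bases in inv(3) libraries and 4588.33 to 4590.1 bases in control libraries. The tests were run on effective length, which also varied between libraries for genes with 1 listed transcript. That of Upf2 was 4997.08 bases in inv(3) replicate 2 and 5011.45 bases in Sf3b1 K700E replicate 1. In the same libraries that of Upf1 was 4411.79 and 4427.02 bases. These tests therefore do not read isoform use alone. No comparison of Upf1 passed in limma, with adjusted p of 0.45 or higher. Of the 3422 genes fitted, 0.0292% passed in double minus inv(3), 0.526% in double minus Sf3b1 K700E, 0.468% in double minus control, 0.0292% in Sf3b1 K700E minus control, 0.263% in inv(3) minus control and 0% in the interaction. Each of the other 8 members has a single listed transcript, so a retained intron, a skipped exon or a cryptic splice site in them is not visible in these values. The libraries were unstranded, and 2 members share exon bases with genes on the opposite strand on GRCm38. Smg6, at chr11:74925823-75164448 on the plus strand, shares 126 exon bases with Srr, which had a median of 6.38 TPM, and Upf1, at chr8:70331525-70353278 on the minus strand, shares 68 with Cers1 and 63 with Gdf1, at 0.045 and 0 TPM. Reads from such stretches cannot be told apart.

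The surroundings of the pathway were followed in 6 further gene lists. Of all tested genes edgeR called 13.4% higher and 9.13% lower in double against inv(3), and 18.4% and 20.3% in inv(3) against control libraries. The shares were 3.94% and 4.9% in Sf3b1 K700E against control, and 20.8% and 20.4% in double against control libraries. In double against Sf3b1 K700E libraries they were 25.7% and 23.5%. The list counts stand beside these shares as a description. Among 13 tested decay and translation termination cofactors, 1 was higher and none lower in double against inv(3) libraries, with a median log2 difference of 0.05 against 0.003 over all genes. In inv(3) against control libraries 1 was higher and 5 lower. In Sf3b1 K700E against control libraries edgeR called 0, with 3 at an unadjusted p under 0.05, and DESeq2 called 1. The higher gene in both of the first comparisons was Mov10, a helicase that binds Upf1. It had 48.4, 42.0 and 47.7 CPM in double, 28.6, 24.4 and 21.5 CPM in Sf3b1 K700E, 34.7, 30.3 and 32.7 CPM in inv(3) and 19.8, 21.2 and 24.1 CPM in control libraries. Its log2 difference was 1.09 ± 0.11 in double minus control, 0.50 ± 0.105 in double minus inv(3) and 0.58 ± 0.11 in inv(3) minus control (SE, n = 3 each, edgeR adjusted p = 1.2e-05, 0.007 and 0.00115). Gspt1, the release factor that ends translation with Etf1, averaged 282.1 CPM in inv(3) and 320.5 CPM in control libraries (log2 difference -0.18 ± 0.05, SE, n = 3 each, edgeR adjusted p = 0.00712). Ncbp1, the large subunit of the nuclear cap-binding complex, averaged 123.5 CPM in double and 141.7 CPM in control libraries (log2 difference -0.20 ± 0.05, SE, n = 3 each, edgeR adjusted p = 0.00755). Double against control libraries had 2 cofactors higher and 2 lower, and double against Sf3b1 K700E libraries had 3 higher and 4 lower, Ncbp2 among the lower.

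Of 9 tested exon junction complex genes, 2 were lower in double against inv(3) libraries and none higher, with a median log2 difference of -0.08. These were Rbm8a, at 83.4, 88.6 and 82.7 CPM in double libraries and 91.3, 101.9 and 93.2 CPM in inv(3) libraries, and the core helicase Eif4a3, at 141, 149.1 and 138.6 CPM in double libraries and 152.8, 166.2 and 155.7 CPM in inv(3) libraries. Their log2 differences were -0.17 ± 0.05 and -0.15 ± 0.04 (SE, n = 3 each, edgeR adjusted p = 0.0224 and 0.0347), and neither passed without inv(3) replicate 2, double replicate 1 or double replicate 3. Of the same 9 genes, only Magoh and Magohb were lower in double against Sf3b1 K700E libraries, by -0.22 and -0.25 on the log2 scale (edgeR adjusted p = 0.0109 and 0.0321), and none was higher. Magoh was also lower in double against control libraries, at -0.17 ± 0.06 (SE, n = 3 each, edgeR adjusted p = 0.0429), but this call was lost in 8 of 12 fits that left out 1 library (any control library, inv(3) replicate 3, Sf3b1 K700E replicate 2 or 3, double replicate 1 or 3), with an adjusted p of up to 0.16. Magohb did not pass without Sf3b1 K700E replicate 2 or 3 or double replicate 1 or 3, where its adjusted p reached 0.103. Against control libraries edgeR called 0 genes of this complex in the inv(3) group and 0 in the Sf3b1 K700E group, with 0 at an unadjusted p under 0.05 in either, and DESeq2 called 0 and 1.

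Of 10 kinases related to Smg1 and their assembly chaperones, 3 were higher in double against inv(3) libraries and none lower, with a median log2 difference of 0.11. The kinase of double-strand break signalling, Atm, had 133.6, 131.6 and 138.3 CPM in double libraries and 115.2, 108 and 108.9 CPM in inv(3) libraries (log2 difference 0.28 ± 0.05, SE, n = 3 each, edgeR adjusted p = 0.00235). Atr, the kinase of replication stress, had 98.6, 99.8 and 100.5 CPM in double libraries and 84.2, 84.0 and 89.5 CPM in inv(3) libraries (log2 difference 0.21 ± 0.05, SE, n = 3 each, edgeR adjusted p = 0.0158). Atr was also lower in inv(3) than in control libraries, at -0.18 ± 0.05 (SE, n = 3 each, edgeR adjusted p = 0.021). Mtor, the nutrient-sensing kinase, was higher in double than in control libraries, at 0.26 ± 0.06 (SE, n = 3 each, edgeR adjusted p = 0.00426). Atr did not pass in double against inv(3) libraries without inv(3) replicate 2 or double replicate 3, nor in inv(3) against control libraries without control replicate 1, inv(3) replicate 1 or inv(3) replicate 2. Between Sf3b1 K700E and control libraries edgeR called 0 of the 10, with 2 at an unadjusted p under 0.05, and DESeq2 called 1. Of 19 decapping, deadenylation and exonuclease genes, 3 were higher and none lower in double against inv(3) libraries, with a median log2 difference of 0.05, among them Ttc37 of the exosome-linked Ski complex at 0.25 ± 0.05 and the decapping helicase Ddx6 at 0.17 ± 0.04 (SE, n = 3 each, edgeR adjusted p = 0.00702 and 0.0164). The exosome nuclease Dis3 was lower in inv(3) than in control libraries, at -0.25 ± 0.05, and the deadenylase subunit Pan2 was lower in Sf3b1 K700E than in control libraries, at -0.22 ± 0.04 (SE, n = 3 each, edgeR adjusted p = 0.00188 and 0.0144). Ddx6 did not pass without inv(3) replicate 2 or 3 or double replicate 1 or 3, nor Pan2 without control replicate 2 or Sf3b1 K700E replicate 2.

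Of 13 tested transcripts known as substrates of the pathway, the numbers higher and lower were 4 and 3 in double against inv(3), 2 and 0 in Sf3b1 K700E against control, 3 and 2 in double against control, 3 and 3 in double against Sf3b1 K700E and 4 and 3 in inv(3) against control libraries. Gas5, a snoRNA host RNA degraded during translation, had 248.4, 238.8 and 263.3 CPM in double, 251, 271.5 and 278.1 CPM in Sf3b1 K700E, 200.2, 204.2 and 205.9 CPM in inv(3) and 239.3, 226.7 and 237.5 CPM in control libraries. It was higher in double than in inv(3) libraries by 0.30 ± 0.05, higher in Sf3b1 K700E than in control libraries by 0.19 ± 0.05 and lower in inv(3) than in control libraries by -0.21 ± 0.05 (log2, SE, n = 3 each, edgeR adjusted p = 0.00233, 0.0375 and 0.00611). Snhg1, another snoRNA host, was lower in inv(3) than in control libraries by -0.28 ± 0.06 (log2, SE, n = 3 each, edgeR adjusted p = 0.00278). Other substrates moved the opposite way in the same comparison, such as the stress gene Gadd45b, which was lower in double than in inv(3) libraries at -0.67 ± 0.13 (log2, SE, n = 3 each, edgeR adjusted p = 0.00584). Cdkn1a, the cell cycle inhibitor p21, averaged 8.64 CPM in Sf3b1 K700E and 5.34 CPM in control libraries (log2 difference 0.69 ± 0.16, SE, n = 3 each, edgeR adjusted p = 0.0233). Without control replicate 2 or Sf3b1 K700E replicate 2, neither Cdkn1a nor Gas5 passed in that comparison, and they also failed without 2 and 4 other libraries. Many of these genes are also set by stress and growth signals, so a level here is no direct reading of decay activity.

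The last list held 13 splicing factor genes with conserved poison exons, whose inclusion sends the mRNA to decay. In Sf3b1 K700E against control libraries 3 were higher and none lower, against 3.94% of all genes higher. In double against Sf3b1 K700E libraries 5 were lower and none higher, against 23.5% of all genes lower. Srsf10 had 224.8, 247.3 and 240.1 CPM in Sf3b1 K700E libraries, against 209.7, 197.9 and 206.2 CPM in control libraries, and 194.4, 198.3 and 191.7 CPM in double libraries. Its log2 difference was 0.21 ± 0.05 in Sf3b1 K700E minus control and -0.29 ± 0.05 in double minus Sf3b1 K700E (SE, n = 3 each, edgeR adjusted p = 0.017 and 0.000303). Srsf7 was likewise highest in the Sf3b1 K700E group in both comparisons, at 0.15 ± 0.04 and -0.15 ± 0.04 (SE, n = 3 each, edgeR adjusted p = 0.0257 and 0.00532). Neither gene passed in Sf3b1 K700E against control libraries without control replicate 2 or Sf3b1 K700E replicate 2, nor Srsf7 without control replicate 1. Both comparisons use the same Sf3b1 K700E libraries. Gene totals do not show whether the poison exon was included. Of the names on these lists, Ncbp3, Pym1, Pat1b, Snhg15 and Zfas1 were not analysed here.

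The genes whose log2 CPM, centred on their own mean, lay closest to each called member over the 12 libraries were sought among 10451 tested genes with a mean of at least 2 CPM. By root mean square difference the nearest to Smg1 were Ubn2 at 0.041 and Spag9 at 0.043, and the nearest to Smg6 were Chd4 at 0.030 and Ncoa2 at 0.033. For Upf3a they were Ndufb2 and Mif4gd, both at 0.035, and for Smg8 they were Anln and Ndufs5, both at 0.037. Each member's own root mean square deviation over the libraries was 0.074 to 0.10. Among the 9 members themselves the closest pairs were Smg1 with Smg6, at 0.067, and Upf3a with Smg8, at 0.074, and the most distant pair was Smg1 with Smg9, at 0.21. These distances share libraries and the GC tilt described above, and they are a description without a test.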

How the data were processed

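Per the labels' protocols, RNA was poly(A)-selected and made into unstranded TruSeq libraries. The authors deposited, per the file headers, 1 gene table per library with RSEM's columns: expected counts (estimated fragments per gene, not normalized), TPM, and gene length and effective length. Bcl2fastq and mm10 are named in the submitters' processing notes, with neither versions nor an aligner. The mapping of libraries to groups came from the labels, and 0 columns were left unmapped.

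The members and gene lists were chosen with earlier results of these data known. Expected counts were rounded to whole numbers, filtered with filterByExpr, scaled by TMM factors and entered into edgeR 4.0.16 in R 4.3.3 as 1 robust quasi-likelihood model over the 4 groups. P-values are two-sided, adjusted by Benjamini-Hochberg over 13755 genes, with a limit of 0.05. Standard errors come from the F statistic. Effective lengths were tested with limma 3.58.1 in 3422 genes with at least 50 counts per library and more than 1 transcript. The text names all members, up to 2 passing genes per list and comparison, and the 2 nearest genes of each called member, and a few results on single genes are left out. Replicate numbers did not pair libraries: over 18 same-numbered pairs, correlations of deviations ran from -0.457 to 0.326. Identical libraries were sought, with 0 pairs found. GC content came from the longest GENCODE vM21 transcript, known for 96.1% of tested genes. The code was tested on simulated data. Alternatives covered scaling, filters, DESeq2 1.42.0, limma-voom, limma on log2(TPM + 1), the samples fitted, a replicate block, effective-length, GC and length offsets, and each library left out. The 2 offsets using GC were added after seeing the data.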

Additional observations from a re-analysis of the deposited data

How the results depend on the processing

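No value of a member that passed in the edgeR model of all 12 libraries without an offset changed sign under any alternative. Of 1368 member values under the alternatives 73 changed sign without passing. Numbers of members called were as follows. For inv(3) against control, 1 became 0 with upper-quartile scaling, library totals and the compared groups alone, 2 with limma on log2(TPM + 1), 2 with the GC offset and 2 with GC and length, and 0 to 1 with libraries left out. For Sf3b1 K700E against control, 0 became 1 with either offset and 0 to 2 with libraries left out. For double against control, 0 became 1 with library totals, DESeq2, the compared groups alone, the fit of the 9 libraries outside inv(3), and the replicate block (Smg1 at 0.16, edgeR adjusted p = 0.0462), 4 with the GC offset, 2 with GC and length, and 0 to 3 with libraries left out. For double against inv(3), 4 became 2 with library totals and with limma on log2(TPM + 1), 0 with the compared groups alone, and 0 to 4 with libraries left out. With GC and length Smg1 was at 0.06 and lost its call (edgeR adjusted p = 0.219), leaving 3. For double against Sf3b1 K700E, 0 became 1 with the fit of 9 libraries, 2 with the GC offset, 1 with GC and length, and 0 to 3 with libraries left out. The cause of these changes was not tested. Interaction and length gave 0 members throughout. The replicate block changed no other member's call, and only 4 of 12 libraries correlated best with their own number. Over all genes, the count for Sf3b1 K700E against control was 1216, and 1881 with DESeq2, 654 with the block and at least 168 with a library left out; double against inv(3) gave 3103, and 1954 with the compared groups alone and 1566 without double replicate 3; the interaction gave 115, and 32 to 323 with a library left out, 622 with DESeq2, 245 with limma on log2(TPM + 1), 60 with the block and 288 and 239 with the offsets. Of 44 values given for list genes that passed, 22 lost their call under at least 1 alternative and 0 reversed. Scaling moves the members on a scale close to their differences, as library totals alone shift the median gene by up to -0.071 and log2(TPM + 1) by up to -0.083. Counting error weighs most on Upf3a, which has the lowest counts of the members, from 1899 to 2193 per library.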
